A study of Arabidopsis thaliana with 58 samples.

Results

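The H3K9me2 peaks of the chromosome 5 pericentromere are the 565 of 4144 deposited peaks whose summit lies at chr5:10000001-14300000 of Arabidopsis thaliana. These borders enclose the run of 100 kb bins of chromosome 5 with few protein-coding genes, so they do not depend on H3K9me2. The study made 58 samples to compare DNA methylation methods and tissues in the Columbia-0 (Col-0) wild type, and 1 ChIP-seq library of unopened flower buds from plants labelled 4 weeks provides all the values given here. That library was pulled down with an antibody against H3K9me2, from the same sheared chromatin as an H3 library that was not analysed here. There were no replicates, so each value describes this library and no difference carries a p-value. The files hold no read counts and the depth is unknown. All 95% intervals are Wilson intervals of a share of loci and cover counting error only.

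H3K9me2, the dimethylation of lysine 9 of histone H3, marks silent chromatin in plants. The methyltransferases SUVH4, SUVH5 and SUVH6 bind methylated DNA and write the mark, and the DNA methyltransferase CMT3 binds the mark and methylates cytosines in the CHG context, where H is A, C or T, so that both marks maintain each other. Pericentromeres, the gene-poor chromatin on either side of a centromere, are rich in transposons and are a known site of H3K9me2, and a centromeric satellite repeat lies at their core. In the RefSeq annotation used here most transposon-derived loci are typed as pseudogenes, and no locus carries a transposon family.

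The sequences below carry the contrasts described further on, and all are read from the plus strand of the RefSeq assembly TAIR10.1. The first 4 are tandem repeats, the satellite inside the widest peak and 3 arrays that differed in how far peaks covered them. Capitals mark bases that differ from the same place in the next repeat unit, 7 in the 355 bp stretch and 0 in the other 3. The 178 bp unit is at chr5:11952427-11952604 and the 150 bp stretches of the 648 bp, 447 bp and 355 bp repeats are at chr5:11232682-11232831, chr5:12877267-12877416 and chr5:13442248-13442397.
178 bp unit, inside a peak: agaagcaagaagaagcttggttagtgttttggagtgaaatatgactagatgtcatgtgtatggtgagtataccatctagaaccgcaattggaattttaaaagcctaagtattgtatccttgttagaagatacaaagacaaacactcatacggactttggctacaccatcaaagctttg
648 bp array, inside a peak: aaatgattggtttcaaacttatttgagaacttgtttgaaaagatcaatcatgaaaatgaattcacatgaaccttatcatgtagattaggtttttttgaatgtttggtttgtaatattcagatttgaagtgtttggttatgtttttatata
447 bp array, outside peaks: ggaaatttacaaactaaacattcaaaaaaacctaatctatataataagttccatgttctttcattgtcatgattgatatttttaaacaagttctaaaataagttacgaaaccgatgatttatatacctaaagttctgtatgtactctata
355 bp array, outside peaks: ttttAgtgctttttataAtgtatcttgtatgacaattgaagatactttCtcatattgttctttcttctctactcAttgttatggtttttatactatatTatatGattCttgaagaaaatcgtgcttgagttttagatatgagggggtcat

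The next 2 sequences show the unequal base composition of covered and spared DNA, with CHG sites of either strand in capitals. They are the 150 bp around the summit of the peak of highest fold, at chr5:10766583-10766732, and the 150 bp in the middle of the longest gap, at chr5:13607716-13607865.
Summit of the peak of highest fold: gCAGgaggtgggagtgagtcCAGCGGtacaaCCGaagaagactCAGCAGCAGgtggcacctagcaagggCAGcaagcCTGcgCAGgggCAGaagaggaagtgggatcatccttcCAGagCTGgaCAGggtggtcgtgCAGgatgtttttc
Middle of the longest gap: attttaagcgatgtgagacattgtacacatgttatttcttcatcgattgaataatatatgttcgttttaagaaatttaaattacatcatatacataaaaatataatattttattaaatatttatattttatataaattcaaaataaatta

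The stretch at the summit is 59.3% G and C and holds 28 CHG cytosines over both strands, whereas the stretch in the gap is 16% G and C and holds 0. These are single windows at their extremes. Over all 150 bp windows that lay whole inside peaks the median was 8 CHG cytosines and 282 of 15160 windows had none, against a median of 5 and 1358 of 12346 windows with none whole outside peaks.

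Peaks covered 2359299 bp, or 54.9% of the 4.3 Mb. They covered 56.1% of the other 4 pericentromeres together (49.8% to 69.0% by chromosome) and 2.20% of the chromosome 5 arms. Most peaks were short and most covered bases were in long ones. Median width was 980 bp and mean width 4173 bp, and the 50 peaks of at least 10 kb, 8.85% of the members, held 61.8% of the covered bases. The fold enrichment of the peaks, the authors' ratio over a background that is not named, had a median of 2.54 (quartiles 2.14 and 3.47) and ran from 1.497 to 10.1. The median was 2.57 in the other 4 pericentromeres and 2.80 in the arms of chromosome 5, where the peaks were sparse.

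Fold was higher in wider peaks over most of the range. The 168 peaks under 500 bp had a median fold of 2.096 and the 50 peaks of at least 10 kb a median of 6.52, and Spearman's rho across the 565 peaks was 0.78, given as a description because both values come from the same peak calls. The widest peaks departed from this order. The widest of all, at chr5:11758079-11957218, spanned 199140 bp with a fold of 4.45. It was followed by peaks of 93216 bp (chr5:11974236-12067451, fold 4.87), 87317 bp (chr5:12095427-12182743, fold 4.596), 66969 bp (chr5:11122007-11188975, fold 1.67) and 55090 bp (chr5:12204423-12259512, fold 9.23). Only the last of these was also among the 5 peaks of highest fold, and the fold of the 66969 bp peak was below the lower quartile of all members, 2.14. At the borders, the first member on the left (chr5:10050108-10056806) had a fold of 6.19 and the last on the right (chr5:14294982-14297433) 3.34, and the nearest peaks outside had 5.98 and 4.65.

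**Figure D1:**
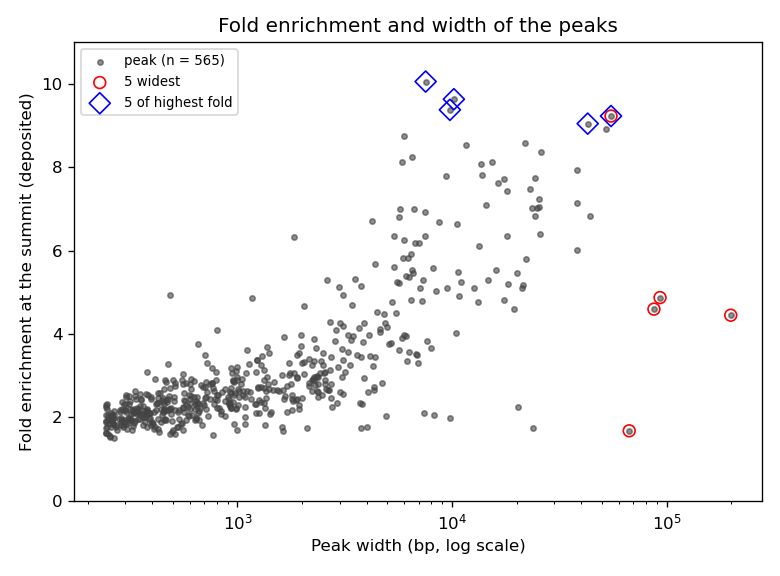
Fold enrichment at the summit against peak width on a log scale, 1 point per peak (n = 565), with the 5 widest peaks circled in red and the 5 of highest fold in blue diamonds. The widest peak, of 199140 bp, stands at a fold of 4.45, and the highest fold, 10.1, belongs to a peak of 7534 bp.

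The 5 highest folds fell on pseudogene loci. The summit of the highest peak (fold 10.1, −log10 q of 175, chr5:10764789-10772322) was in AT5G28715. The next were at chr5:13372629-13382828 (fold 9.64, summit in AT5G35113), chr5:12966522-12976295 (fold 9.38, summit in AT5G34800), the 55090 bp peak (fold 9.23, summit in AT5G32594) and chr5:12737049-12779946 (fold 9.05, summit in AT5G33442). All 5 of these loci are typed as pseudogenes. Such loci took up 33.2% of the bases of the region, and 43.3% to 69.3% by length class in domains of at least 1 kb. Of all 565 peaks, 350 (61.9%) touched a pseudogene or transcribed pseudogene, 46 (8.14%) a protein-coding gene and 188 (33.3%) neither. Those with neither made up 49.5% of the 289 peaks under 1 kb, 45 of the 226 peaks of 1 to 10 kb and 0 of the 50 peaks of at least 10 kb. The share that touched a protein-coding gene also rose with width, being 4.50%, 10.2% and 20% in these classes. A wider peak has more bases that can meet a locus of any kind, and the share to be met by width alone was not tested.

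Coverage by peaks was uneven along the 4.3 Mb. By 100 kb bin it ran from 9.18% to 100%, with 100% in the bin at chr5:11800001-11900000, which a single peak filled. Bins were then grouped into 4 stretches, with borders drawn after the values were seen, so their contrast is a description. Peaks covered 32.4% of chr5:10000001-11000000, 86.9% of chr5:11000001-12500000, 62.4% of chr5:12500001-13400000 and 18.9% of chr5:13400001-14300000. Protein-coding genes took up 17.9%, 2.68%, 6.51% and 28.6% of the bases of these stretches in the same order. Across the 43 bins, coverage by peaks went with few bases in protein-coding genes (Pearson's r = -0.85, Spearman's rho = -0.86) and with many in pseudogene loci (r = 0.68, rho = 0.66). Neighbouring bins share domains and are not independent, and both are descriptions of 1 library.

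**Figure D2:**
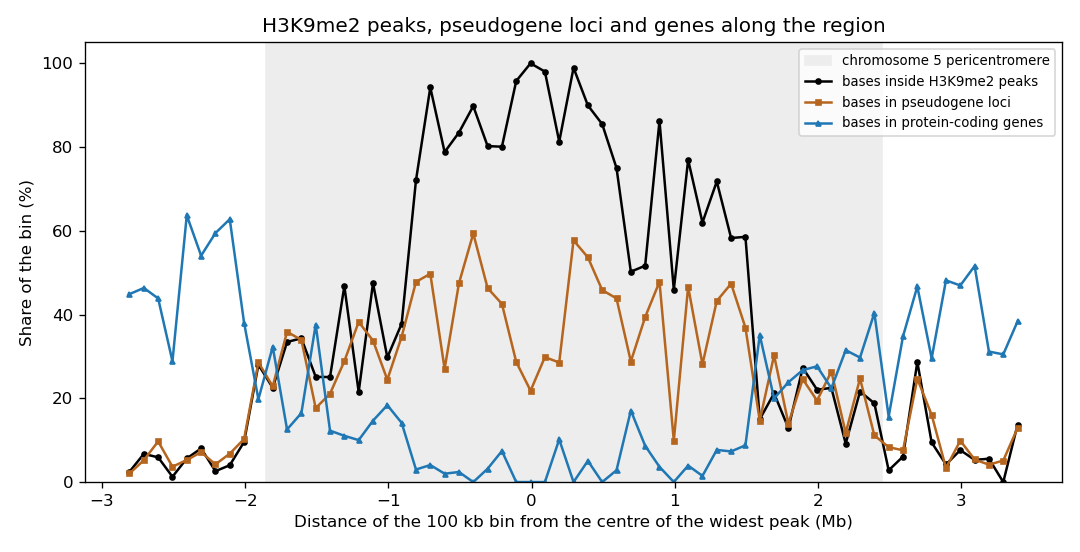
Share of each 100 kb bin inside H3K9me2 peaks, in pseudogene loci and in protein-coding genes, by distance from the centre of the widest peak, with the pericentromere shaded. Coverage reaches 100% at the widest peak, and the last 0.9 Mb on the right stay at or below 27.3%.

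The fall on either side was not symmetric, and the lower side changed with the distance of the bin from the centre of the widest peak. Bins from -1.51 to -0.91 Mb were 21.5% to 47.5% covered, and those from 0.89 to 1.49 Mb 45.9% to 86.3%. Farther out, bins from -1.81 to -1.61 Mb were 22.5% to 34.3% covered, and those from 1.59 to 1.79 Mb 12.9% to 21.2%. The 2 outer stretches below lay at unlike distances, -1.81 to -0.91 Mb and 1.59 to 2.39 Mb. The stretch on the left kept scattered peaks, 158 of median width 798 bp, with no bin under 21.5%. On the right the last 0.9 Mb held 79 peaks, no bin over 27.3%, and 106 protein-coding genes, against 25 in the 1.5 Mb of the core. One bin inside the covered part combined low coverage with few genes. At chr5:12800001-12900000 peaks covered 45.9%, with 86.3% and 76.9% in the bins beside it, although it had no protein-coding gene. Of its 50-mers 82.2% occurred more than once in the assembly, the highest share of the 43 bins. The bin, of 100 kb, also held 7320 of the 10278 unassembled bases of the region. Such bases can limit peak calling, and their part in the coverage of this bin was not tested. The peak at chr5:11701119-11725018 spanned 62 unassembled bases. The bins at chr5:12500001-12600000 and chr5:12600001-12700000 were nearly as low, at 50.2% and 51.7%, with 7 and 4 protein-coding genes.

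Joined over gaps of up to 1 kb, the peaks formed 214 domains, of which 52 reached 10 kb and together spanned 46.2% of the region. The longest, at chr5:11726029-12075946, spanned 349918 bp with 15 peaks, 47 pseudogene loci and no protein-coding gene. The longest domain of the other 4 pericentromeres was 204285 bp. The next domains here were 166306 bp (chr5:12093207-12259512), 123147 bp (chr5:11065829-11188975), 83116 bp (chr5:12966522-13049637) and 81686 bp (chr5:12308424-12390109). They held 1, 4, 2 and 0 protein-coding genes and 43, 24, 19 and 14 pseudogene loci in the same order.

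Long domains were poor in genes but not empty of them. Of the 52, 36 held no protein-coding gene. By midpoint they held 21 of the 249 protein-coding genes (8.43%) and 397 of the 604 pseudogene loci (65.7%). The bases in protein-coding genes fell with domain length, being 0.835% in the 9 domains of at least 50 kb and 7.97% in the 52 domains under 1 kb. Pseudogene loci filled 69.3% of domains of 5 to 10 kb and 43.3% of those of at least 50 kb, where soft-masked repeats took up 44.2%.

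**Figure D3:**
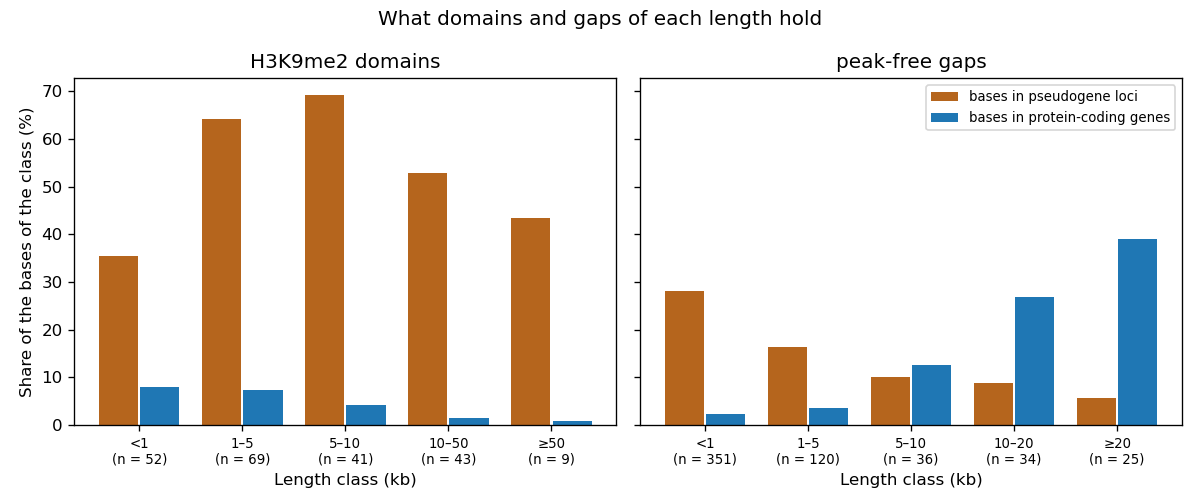
Share of bases in pseudogene loci and in protein-coding genes for domains (left) and peak-free gaps (right) by length class, with the number in each class below the bars. The share in protein-coding genes is 0.835% in domains of at least 50 kb and 39.0% in gaps of at least 20 kb.

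Gaps made the opposite series. Of the 566 gaps, 351 were under 1 kb and covered 2.58% of the region, whereas 59 reached 10 kb and covered 29.96%. Gaps of at least 10 kb took up 25.2% of the other 4 pericentromeres together and 14.3% to 29.8% of each. Here they held 177 of the 249 protein-coding genes by midpoint (71.1%) and 55 of the 604 pseudogene loci (9.11%). Unassembled bases amounted to 1 bp of these long gaps.

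The 5 longest gaps were in the flanks and held enzymes, a kinetochore protein and signalling kinases. The longest, 63019 bp at chr5:13576282-13639300, held 8 protein-coding genes, among them CAC2 (AT5G35360, the biotin carboxylase subunit of plastid acetyl-CoA carboxylase), PRK1 (a leucine-rich repeat receptor kinase) and SOS2 (a protein kinase of salt tolerance), and the microRNA genes MIR396b and MIR2937. SOS2 was only 925 bp from the next peak. The second, 53277 bp at chr5:13660086-13713362, held MRU1 and MIS12, which encodes a kinetochore protein. The third, 48300 bp at chr5:10001808-10050107, held CYSD2 and DES1, which make and break down cysteine. The fourth, 47887 bp at chr5:14208685-14256571, held CYP716A2 and PEN3, a cytochrome P450 and a putative triterpene synthase, with HCF109, scpl1 and CYP81D1. The fifth, 37150 bp at chr5:14039492-14076641, held CYP79A3P and CYP79A4P, both described as cytochrome P450 pseudogenes although typed as protein-coding.

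4 of the 59 long gaps held no protein-coding gene. They measured 23608 bp (chr5:12874596-12898203), 15072 bp (chr5:13968352-13983423), 13103 bp (chr5:10695389-10708491) and 11073 bp (chr5:13075939-13087011), and were chosen after their values were seen. The first of them overlapped most of the 447 bp array, whose left end lay outside it.

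Of the 249 protein-coding genes of the region, 46 (18.5%, interval 14.1% to 23.8%) overlapped a peak by 1 bp or more. Over all protein-coding genes of the 5 chromosomes the share was 2.53%. In the other 4 pericentromeres it was 27.3% (24.4% to 30.3%), from 24.8% to 30.8% by chromosome, and in the chromosome 5 arms 0.904%. The interval of chromosome 5 ended below that of the other 4 together, but at 50% or more of the gene inside peaks the shares were 15.7% (11.7% to 20.7%) and 21.9% (19.3% to 24.8%) with overlapping intervals, and the genome-wide share was 1.94%. The difference between chromosomes was not tested, since there was 1 library.

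**Figure D4:**
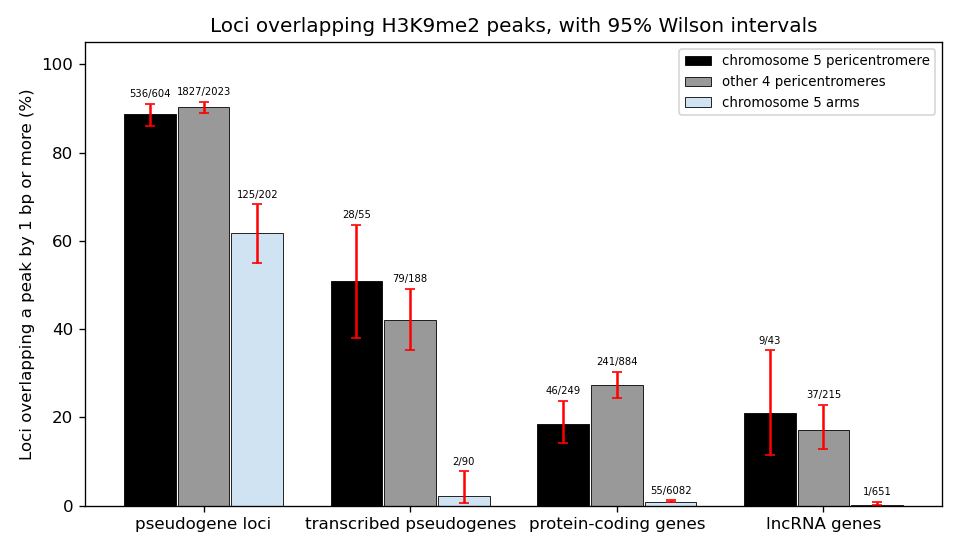
Share of loci of 4 classes that overlap a peak by 1 bp or more in the chromosome 5 pericentromere, the other 4 pericentromeres and the chromosome 5 arms, with 95% Wilson intervals as error bars and counts above the bars. In the chromosome 5 pericentromere 536 of 604 pseudogene loci and 46 of 249 protein-coding genes overlap a peak.

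Only 21 protein-coding genes (8.43%, against 1.11% genome-wide) lay whole inside a peak, and few of them have a known role. 8 encode uncharacterised proteins (AT5G28090, AT5G28560, AT5G29070, AT5G29210, AT5G30341, AT5G33806, AT5G35067 and AT5G35069). Another 4 are hypothetical proteins of families named only by a domain of unknown function, DUF3287 in AT5G29050, AT5G33898 and AT5G35603 and DUF1985 in AT5G35050. AT5G29054 is described as a Gag-Pol polyprotein of a retrotransposon. AT5G32613 and AT5G34870 encode proteins with a CCHC zinc knuckle, a fold also found in retroviral Gag proteins, and AT5G28235 a protease of the Ulp1 family, which cleaves SUMO. The others are AT5G32590 and AT5G35604 (myosin heavy chain-like), AT5G28590 (DNA-binding), AT5G34581 (hydroxyproline-rich glycoprotein) and AT5G28420 (a pentatricopeptide repeat protein, of the class that acts on organelle RNA).

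The covered genes also differed in kind from the spared ones. The 46 had a median length of 1207 bp and 24 of them (52.2%) had a described product, whereas the 203 spared genes had a median of 2035 bp and 180 (88.7%) had one. Among genes with hypothetical or unknown products 22 of 45 overlapped a peak, and among those described as transposase or retroelement proteins 4 of 5 did (AT5G28615, AT5G29054, AT5G31412 and AT5G33406). The lists of F-box proteins (0 of 5), cytochromes P450 (0 of 5), disease resistance proteins (0 of 3) and kinases (1 of 12, AT5G28620) had few or no members in peaks. Zinc finger proteins had 1 of 3 (AT5G36228), helicases 1 of 2 (AT5G28780), pentatricopeptide proteins 1 of 3 (AT5G28420) and proteins with a domain of unknown function 4 of 17, and those 4 are also among the hypothetical products. With so few genes the intervals are wide, up to 43.4% for 0 of 5, and they include the 18.5% of all genes of the region for each of the lists named here other than the hypothetical and the transposase or retroelement products. These lists were made from words in the product names.

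Of the 58 genes with a symbol, 1 overlapped a peak. It was SRS8 (AT5G33210, chr5:12464746-12465764), a member of the SHI-related family of transcription factors, with 71.3% of its length and its start inside a peak and its end outside. 54 of the 58 lay in gaps of at least 10 kb. Of all 46 overlapping genes, 21 lay whole inside a peak and the others were covered in part. In 7, SRS8 among them, only the start was inside, in 9 only the end, and in 9 the peak lay within the gene or covered neither end.

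Coverage by peaks was lower next to both ends of genes than farther away. Along the 249 genes the share with the position inside a peak was 22.9% at 3 kb upstream and 15.3% at 1 kb. It was 10.8% in the last 100 bp before the start and 16.9% at its highest in the gene body. Past the end it was 12.4% at 100 bp, 17.3% at 1 kb and 21.3% at 3 kb. The other 4 pericentromeres had 29.9% at 3 kb upstream, 21.0% at 1 kb, 14.9% at 400 bp and 17.3% in the last 100 bp. Past the end they had 15.8% at 200 bp and 28.1% at 3 kb. Of all exon bases 9.42% were inside peaks, of intron bases 7.82% and of the 500 bp upstream 11.5%. In the other 4 pericentromeres these were 14.98%, 18.0% and 16.2%.

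**Figure D5:**
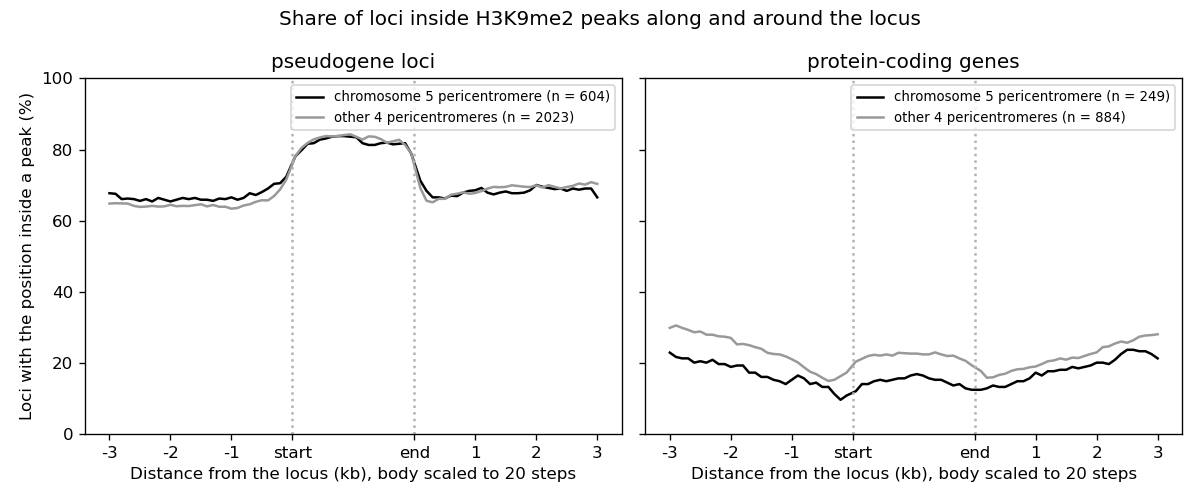
Share of pseudogene loci (left) and protein-coding genes (right) with a given position inside a peak, from 3 kb upstream to 3 kb downstream with the body scaled to 20 steps, for the chromosome 5 pericentromere in black and the other 4 in grey. Pseudogene loci reach 83.8% within the locus, and protein-coding genes stand at 10.8% just before their start and 12.4% just past their end.

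The spared genes were not all far from the mark. The median distance of the 203 to the nearest peak was 4362 bp, with 29 (14.3%) within 1 kb and 41 (20.2%) over 10 kb away. In the other 4 pericentromeres the median was 3935 bp, with 15.6% within 1 kb and 21.0% over 10 kb. The farthest here was 27880 bp from a peak. Genes caught between 2 close peaks were rare, 3 with a peak within 1 kb on both sides. AT5G34829, an uncharacterised gene of 219 bp at chr5:12982671-12982889, had peaks 238 bp and 59 bp away. AT5G32619, a defensin-like gene, had peaks at 366 bp and 587 bp, and AT5G30360 at 864 bp and 473 bp. The next by this measure were AT5G29560 (caleosin-related), AT5G28460 (pentatricopeptide repeat), AT5G28740 (tetratricopeptide-like), WNK9 (a protein kinase), AT5G28610, AT5G34828 (thionin family) and AT5G33390 (glycine-rich), with the farther of their 2 peaks 1438 to 3127 bp away.

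The stretch at chr5:10300001-10400000 showed near neighbours on both sides of this line. 41.7% of its 50-mers occurred more than once, and it held 3 pentatricopeptide repeat genes. AT5G28420 was whole inside a peak, AT5G28370 and AT5G28460 had no base in one, at 15723 bp and 662 bp from the nearest. These genes were chosen after their values were seen.

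None of the 13 genes of the H3K9me2 and DNA methylation machinery that were looked up, SUVH4, SUVH5, SUVH6, CMT2, CMT3, MET1, DDM1, IBM1, DRM2, ROS1, NRPD1, NRPE1 and FWA, a known target of DNA methylation, lies in this region. None of them had a base inside a peak, where only 2.53% of all protein-coding genes of the 5 chromosomes overlapped one. Within the region MBD02 and MBD12, which encode methyl-CpG-binding domain proteins, and the histone deacetylase gene HDA7 were 721 bp, 5275 bp and 6702 bp from the nearest peak. These 3 were chosen after their values were seen.

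Most pseudogene loci of the region overlapped a peak. Of 604, 536 overlapped a peak (88.7%, interval 86.0% to 91.0%), beside a share of 83.1% over all pseudogene loci of the 5 chromosomes. It was 90.3% (88.9% to 91.5%) in the other 4 pericentromeres and 61.9% (55.0% to 68.3%) in the chromosome 5 arms. At 50% or more of the locus the share was 84.4%, against 77.6% genome-wide. 395 (65.4%, genome-wide 55.3%) lay whole inside a peak, with 63.0% in the other 4 pericentromeres. In the core, at chr5:11000001-12500000, 270 of 270 overlapped a peak. The share was 84 of 107 in the left stretch, 131 of 147 at chr5:12500001-13400000 and 51 of 80 in the last stretch, where peaks were fewest. These stretches were drawn after the coverage was seen. Peaks covered 86.9% of the bases of the core and 18.9% of those of the last stretch. The counts by stretch therefore follow in part from that choice.

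Spared pseudogene loci were shorter. The 536 covered loci had a median length of 2040 bp (quartiles 1047 and 3464 bp) and the 68 spared ones 923 bp (620 and 1345 bp), and a longer locus has more bases that can meet a peak. The position inside pseudogene loci was in a peak in 78.1% to 83.8% of loci and in 66.6% at 1 kb upstream. Along protein-coding genes coverage was lower next to both the start and the end than 1 kb away.

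Transcribed pseudogenes stood between both classes, with 28 of 55 overlapping a peak (50.9%, interval 38.1% to 63.6%, genome-wide 17.8%) and 42.0% (35.2% to 49.2%) in the other 4 pericentromeres. 17 lay whole inside a peak, beside 9.5% genome-wide. The annotation says what each derives from. All 5 derived from myosin heavy chain-like genes and 8 of 8 derived from hypothetical proteins overlapped a peak, as did 3 of 5 of transposase or reverse transcriptase origin. Of the 37 derived from another named protein 12 did. These word groups were made after the values were seen. The longest, AT5G32690 at chr5:12332283-12390801, is described as a pseudogene of a Myb/SANT-like protein, spans 58519 bp and was 96.7% inside peaks. Among the spared were copies of ACC synthase (AT5G28360), a disease resistance protein (AT5G28469) and topoisomerase II (AT5G28143).

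Non-coding RNA genes were covered to unlike extents. Of 43 lncRNA genes 9 overlapped a peak (20.9%, interval 11.4% to 35.2%, genome-wide 2.7%), close to 17.2% (12.8% to 22.8%) in the other 4 pericentromeres. All 9 had 50% or more of their length inside peaks (2.39% genome-wide) and 4 lay whole inside one (1.29% genome-wide). Of 12 microRNA genes 8 did (66.7%, interval 39.1% to 86.2%, genome-wide 6.13%), against 5 of 18 in the other 4. The count rests on repeated copies. 5 of the 8 are MIR854a to MIR854e, a family known from LTR retrotransposons of the Athila group, which share 1 mature sequence, and 2 are MIR5643a and MIR5643b, which share another. All 7 lay whole inside a peak, beside 5.52% genome-wide, and MIR5029 was 63.4% inside one. The spared genes were MIR5027, MIR396b, MIR2937 and MIR5638b. miR396, a regulator of the growth-regulating factors, is a conserved microRNA. The mature sequences are shown as DNA with the seed, bases 2 to 8, in capitals, at chr5:11847721-11847741 and chr5:11667857-11667877 for the covered copies and chr5:13611808-13611828 for the spared gene, all on the plus strand.
miR854a, inside a peak: gATGAGGAtagggaggaggag
miR5643a, inside a peak: aGGCTTTTaagatctggttgc
miR396b-5p, outside peaks: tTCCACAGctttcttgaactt

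Covered and spared DNA differed in base composition, as the windows at the summit and in the gap show at their extremes. G and C made up 40.9% of bases inside peaks, against 32.0% outside, and CHG cytosines of both strands came to 5.86 against 3.79 per 100 bp. CG cytosines numbered 5.60 against 4.04 and CHH cytosines 29.4 against 24.2 per 100 bp. The contrast held without genes. Outside protein-coding genes G and C were 40.8% inside peaks, against 30.1% outside, and CHG cytosines 5.84 against 3.11 per 100 bp. The values of the other 4 pericentromeres were close, at 40.6% of G and C inside peaks against 32.0% outside. Enrichment of DNA during library preparation and sequencing can vary with base composition, and its part in these values was not tested.

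Repeated sequence was unequally covered as well. The reads were 50 bp long, and a 50-mer that occurs more than once in the assembly cannot be placed uniquely by such a read. These made up 27.6% of positions inside peaks, against 9.37% outside. Put the other way, 78.3% of repeated positions were inside peaks and 49.4% of unique ones, with 83.3% and 50.4% in the other 4 pericentromeres. Soft-masked bases of the assembly differed less, with 34.0% inside peaks and 31.4% outside. How reads with several matches were treated is not given in the sources used here, so coverage of repeated sequence and of the tandem arrays depends on a step that could not be examined.

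Tandem repeats were found as 1 kb windows that matched themselves at a shift of 100 to 1000 bp. The satellite whose 178 bp unit is printed above formed 12 arrays with 114000 bp at chr5:11672001-12063000, and 99.0% of this was inside peaks. The best identity of each array with the printed unit was 88.2% to 100%, the highest in the array that holds that unit, and arrays were counted as satellite from 80% upwards. Over 204 windows of 2 kb outside arrays the median was 56.2% and the highest 96.1%, so near copies of the unit also lay outside the arrays. In 3 of the 12 arrays the commonest shift was 888 or 889 bp, close to 5 units. Each window was given the shortest local best shift whose identity was within 5 percentage points of its highest. The widest peak held an array that spanned 47000 bp at chr5:11852001-11899000, and its fold of 4.45 was below the median of 6.52 of long peaks. The assembly holds only a part of the centromeric satellite, so these values describe the copies that were assembled.

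Arrays of other repeats were not all marked. Together 9 of them held 78000 bp, of which 56.2% was inside peaks, against 99.0% for the satellite. The 648 bp repeat printed above ran for 38000 bp at chr5:11229001-11267000, and 26 peaks with folds of 1.76 to 3.21 covered 88.0% of it. The 447 bp repeat at chr5:12872001-12886000 had 2.13% of its bases in a peak, with 1 peak of fold 1.53. The 355 bp repeat had 4.79% at chr5:13448001-13462000 and 0% at chr5:13442001-13443000. Repeats of 748 and 749 bp at chr5:12808001-12813000 and chr5:12850001-12856000 were 72.6% and 64.6% covered.

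The 648 bp and 447 bp repeats were related to each other yet differed in coverage, as did the 100 kb bins around them. The printed stretch of the 447 bp repeat matched the 648 bp array on the opposite strand at 84.7% identity, with 23 edits in 150 bp, whereas its best match over 204 windows outside arrays had a median of 57.3% and reached 62%. The 355 bp stretch matched neither array above 58.7%, against a median of 58% over those windows, although the best of them reached 94%. G and C made up 31.7% of the covered 648 bp array, against 28.7% of the 447 bp array and 30.1% and 30.7% of the 355 bp arrays. They made up 35.3% to 37.8% of the satellite arrays and 39.2% to 40.1% of the arrays of 748, 749 and 998 bp repeats. The 3 arrays of 355 or 447 bp repeats, each with under 5% of its bases in peaks, were the lowest in G and C. A 208 bp repeat at chr5:10221001-10222000 also had 0% in peaks, but its 35.2% of G and C was above that of the 648 bp array. The part of base composition was not tested. Repeated 50-mers made up 80.02% of the 648 bp array, against 90.0% of the 447 bp array, and 47.1% and 91% of the 355 bp arrays. The pair was chosen after their values were seen, and how reads of such copies were assigned was not tested.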

How the data were processed

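H3K9me2 was measured by ChIP-seq in 1 flower library, and of 58 samples only this one has a processed file here. Per the submitters' processing notes, reads were processed with Bowtie 1.1.2, SAMtools and MACS2 2.1.1 on TAIR10. The control, the thresholds and the treatment of reads with several matches are not given in the sources used here. The authors deposited 4144 peaks, each with a score, a fold enrichment (a ratio), −log10 values of p and of q, and the summit's distance from the start. In 4143 peaks the deposited score equals 10 times −log10 q without its decimals. Fold and −log10 q served to describe, rank and filter peaks. The depth is unknown.

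The smallest −log10 q-value of a member was 1.32. No peak ended past a chromosome of TAIR10.1, whose RefSeq sequence and annotation were used. The region borders come from 100 kb bins. Protein-coding coverage was smoothed over 5 neighbouring bins, and the longest gene-poor run, below 50% of the median of the chromosome, was taken, and the other 4 pericentromeres were set likewise. Peaks were placed by summit and loci by midpoint. A locus overlapped with at least 1 bp inside a peak, introns included. Domains joined peaks over gaps of up to 1 kb, and 10 kb was the limit for long domains and gaps. Repeated 50-mers were counted on both strands of all sequences of the assembly, not only of chromosomes 1 to 5. Tandem arrays were 1 kb windows with at least 70% identity to themselves at a shift of 100 to 1000 bp, joined up to 5 kb apart, and arrays with at least 80% identity to the 178 bp unit were counted as the satellite.

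Genes and peaks were named by a rule that took the 5 widest peaks, the 5 of highest fold, the 5 widest domains, the 5 longest gaps with their genes that carry a symbol, every protein-coding gene whole inside a peak, genes with a symbol cut by a peak border with their start inside, and the 10 spared genes with the closest peaks on both sides. The members and lists were chosen with earlier results of these data known. With 1 library no test was run. Alternatives were other peak filters, region borders, overlaps, join distances and gap lengths. Scripts ran in Python 3.11.15 with edlib 1.3.9.post1, numba 0.67.0, matplotlib 3.10.9, pandas 2.3.3, NumPy 2.4.6 and SciPy 1.17.1, and the steps were tested on simulated data.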

Additional observations from a re-analysis of the deposited data

How the results depend on the processing

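The limits of these values are those of 1 peak list. No paired analysis was possible because only 1 library had a file. With only the peaks at or above the genome-wide median fold of 2.60, peaks covered 46.9% of bases, 14.1% of protein-coding genes and 77.2% of pseudogene loci, and the median fold was 3.51. At or above the upper quartile of 3.82 these were 39.9%, 7.23%, 63.6% and 5.39. With only peaks of at least 500 bp, coverage was 53.5% and the median fold 2.90, and with peaks within 1 kb merged coverage was 57.4%. Region borders at 75% of the median gene share (9.8 to 15.5 Mb) gave 43.8% of bases and 10.3% of protein-coding genes, and borders from 50 kb bins (9.95 to 14.1 Mb) gave 56.2% of bases. With at least 50% of the locus inside peaks the share of pseudogene loci was 84.4%. Gaps of at least 5 kb numbered 95. At positions whose 50-mer occurs once, an alternative chosen after seeing the data, peaks covered 49.4%. The number of domains of at least 10 kb stayed between 42 and 56 over the 7 alternatives run, and that of gaps of at least 10 kb between 56 and 83 over the 5 alternatives that kept this length. Under every alternative run for both, the share of pseudogene loci overlapping a peak was above that of protein-coding genes.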
